A study of Homo sapiens with 60 samples.

Results

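Spheroids of HCT116, a human colorectal cancer line that grows as an epithelium, were cultured with kynurenic acid or left untreated, and their RNA was counted. Libraries were chosen by the treatment and medium that the deposited table's columns name: 5 of kynurenic acid and 5 untreated in Medium 1, and 5 of each in Medium 2, which makes 20 of the 60 libraries of the series. Kynurenic acid was given at 1 µM from day 1 to day 8 after seeding. Untreated spheroids received none of the compounds, and all groups shared one growth medium with serum. According to the series design, some spheroids were sampled at once and others after 3 h without nutrients. The sources used here do not tie either state to the name Medium 1 or Medium 2, so the names are kept, and a label that calls the culture nutrient-rich is the same for both. The other groups of the series received butyrate, hemin, kynurenine, or hemin with kynurenine. Of those, kynurenine at 1 µM is set beside kynurenic acid in both media. The 5 samples of a group are labelled as biological replicates of one line without mention of separate cultures. A p-value thus covers only the spread among these samples, which may be technical. The labels call the molecule cytoplasmic RNA.

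Kynurenine is the first stable product of tryptophan breakdown, and kynurenine aminotransferases turn it into kynurenic acid by closing its side chain into a second ring. Kynurenic acid is known to block ionotropic glutamate receptors, to activate the orphan receptor GPR35 and to bind the aryl hydrocarbon receptor. That receptor is a transcription factor held in the cytosol by HSP90 until a ligand binds. It then enters the nucleus, pairs with ARNT and switches on CYP1A1, CYP1B1, TIPARP and its own repressor AHRR. In the gut, tryptophan products of host and bacteria are among its ligands.

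Totals of the 20 libraries ran from 1486159 to 2159361 counts (median 1886322.5). The filter on low counts kept 11298 of 29744 genes. The lowest chi-square per degree of freedom between 2 libraries of a group was 2.42, so none repeated another within sampling noise. The first principal component held 20.3% of the variance and separated the media. The second held 10% and spread libraries within groups. Its scores ran from -28.86 (well F3) to 24.2 (well A4) among kynurenic acid libraries of Medium 1. In Medium 2 they ran from -26.18 (well G7) to 2.9 with kynurenic acid and from -9.79 to 15.17 untreated. The cause of this spread was not tested. Levels are given as CPM, which puts libraries of unequal totals on one scale. Pairs of libraries had a median correlation, on the log2 CPM scale, of 0.9618 within groups, 0.9613 between kynurenic acid and untreated libraries of Medium 1, 0.9575 between those of Medium 2 and 0.9482 between media. Of 20 epithelial markers 17 passed the filter, as did 1 of 8 fibroblast markers and no marker of leukocytes (8), endothelium (5) or erythroid cells (5), and those 4 lists together held 4 to 31 counts per library. Within each medium, kynurenic acid and untreated libraries shared no plate column, so column and exposure cannot be told apart in that comparison. Some kynurenic acid and kynurenine libraries did share a column in each medium.

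Across the transcriptome, kynurenic acid at this dose went with few differences. In Medium 2 the transcription factor gene EGR1 and the selenoprotein P gene SEPP1 fell, and no gene rose. These 2 genes are 0.0177% of those tested (adjusted p under 0.05). Every adjusted p here comes from edgeR's quasi-likelihood F-test and the Benjamini-Hochberg procedure, run across the 11298 genes. In Medium 1 no gene passed (0%), and the smallest adjusted p was 0.999. Averaged over both media, with 10 libraries against 10, none passed either (0%, smallest adjusted p = 0.457). Between untreated spheroids of the media, by the same test, 304 genes were higher and 417 lower in Medium 2.

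At an unadjusted p under 0.05, a level that 5% of genes reach where nothing differs, Medium 1 had 183 genes higher and 186 lower with kynurenic acid (3.27%). Medium 2 had 491 higher and 410 lower (7.97%), and the average over media 412 and 376 (6.97%). The libraries of both groups did not overlap in Medium 1 for 33 genes higher (0.292%) and 39 lower (0.345%). In Medium 2 the same held for 119 genes higher (1.05%) and 99 lower (0.876%). The only gene whose libraries were apart in the same direction in both media was PPAPDC2, a lipid phosphatase family gene, lower with kynurenic acid. DESeq2 called 0 genes in Medium 1, 3 in Medium 2 and 0 for the average over media. The median standard error of a gene's log2 fold change was 0.209 in Medium 1 and 0.214 in Medium 2, which sets the size of difference that 5 libraries a group could show.

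**Figure D1:**
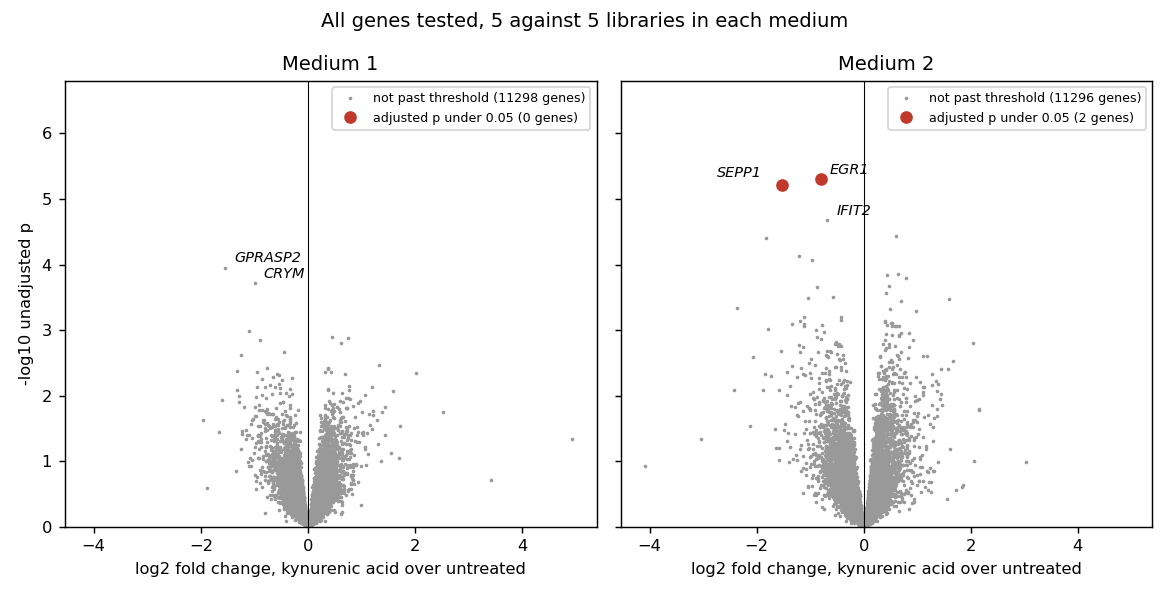
Each point is 1 of 11298 genes, with the log2 fold change of kynurenic acid over untreated on the x axis and −log10 of the unadjusted p of edgeR's test on the y axis, for Medium 1 (left) and Medium 2 (right). Red points passed an adjusted p of 0.05: none in Medium 1, and EGR1 and SEPP1 in Medium 2, both to the left of 0.

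EGR1 encodes a zinc finger transcription factor that cells make within minutes of a growth factor or stress signal. It lies at chr5:138465479-138469303 (GRCh38, protein coding). Untreated Medium 2 libraries held 299, 274, 400, 318 and 254 CPM of it, and those with kynurenic acid 179, 186, 190, 171 and 163 CPM. No library of one group reached the range of the other, and the kynurenic acid libraries lay close together. The log2 fold change was -0.80 (SE 0.16, adjusted p = 0.0341). In Medium 1 the levels were 83.4, 121, 81.3, 89.6 and 88.2 CPM untreated and 98.5, 132, 104, 115 and 103 CPM with kynurenic acid. There the groups overlapped (log2 fold change 0.25, SE 0.17, adjusted p = 0.999). In whole spheroids, fewer cells that express a gene and less of its RNA per cell cannot be told apart.

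EGR1 is shown with its promoter because it led the comparison and because its known switch, serum response factor, binds CArG boxes there. The stretch is the 250 bases before the RefSeq start of EGR1, chr5:138465229-138465478 on the + strand of GRCh38.p14, with capitals for the 2 CArG boxes a search found, whose first bases are 105 and 83 bases before the start.
EGR1 promoter: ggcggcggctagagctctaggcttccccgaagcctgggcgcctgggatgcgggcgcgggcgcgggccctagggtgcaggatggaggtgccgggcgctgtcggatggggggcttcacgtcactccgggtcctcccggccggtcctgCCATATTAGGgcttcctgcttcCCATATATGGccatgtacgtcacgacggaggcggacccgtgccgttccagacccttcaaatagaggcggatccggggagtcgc
The pattern reads alike on both strands, so the search covered both, and 407 of 35116 windows of that length (1.16%) hold at least one. A match describes these letters and does not show binding in these spheroids.

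SEPP1, now named SELENOP, encodes a secreted protein that carries selenium to tissues, and lies at chr5:42799880-42811892 on GRCh38. It was a low gene here. Untreated Medium 2 libraries held 13.9, 11.9, 18.1, 8.59 and 13 CPM and kynurenic acid libraries 5.30, 4.59, 6.44, 2.62 and 4.02 CPM. The 2 sets did not overlap, and the log2 fold change was -1.53 (SE 0.31, adjusted p = 0.0341). In Medium 1 both groups were already low, at 2.26 to 6.15 CPM untreated and 2.99 to 8.66 CPM with kynurenic acid, and the log2 fold change was 0.15 (SE 0.34).

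Both calls rested on nearly all libraries. Leaving out any 1 of the untreated Medium 2 libraries of wells G4 and A5, or any 1 of the kynurenic acid libraries of wells C7, D7, E7, F7 and G7, left no gene past the threshold. Without C5 only EGR1 passed (adjusted p = 0.0303), without H4 both did (0.0491 each), and without B5 both did together with IFIT2. Over these 10 fits the log2 fold change of EGR1 ran from -0.87 to -0.69 with adjusted p between 0.0303 and 0.345, and that of SEPP1 from -1.67 to -1.38 with adjusted p between 0.0213 and 0.345. With only the compared groups in the fit EGR1 passed (adjusted p = 0.0024) and SEPP1 did not, and IFIT2 (0.0195) and HES1 (0.023) were called. In 1 random draw that thinned libraries to equal depth, SEPP1 was lost (adjusted p = 0.153). EGR1 (0.0305), TNFAIP3 (0.0428) and C19orf68 (0.0339) were called in it, the last of which is named after its values were seen. Further draws were not made, so how far these calls depend on the draw was not tested. Untreated Medium 2 had the highest mean level of EGR1, SEPP1, IFIT2 and HES1 of the 6 groups in that medium, and every exposure there is set against the same 5 untreated libraries.

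**Figure D2:**
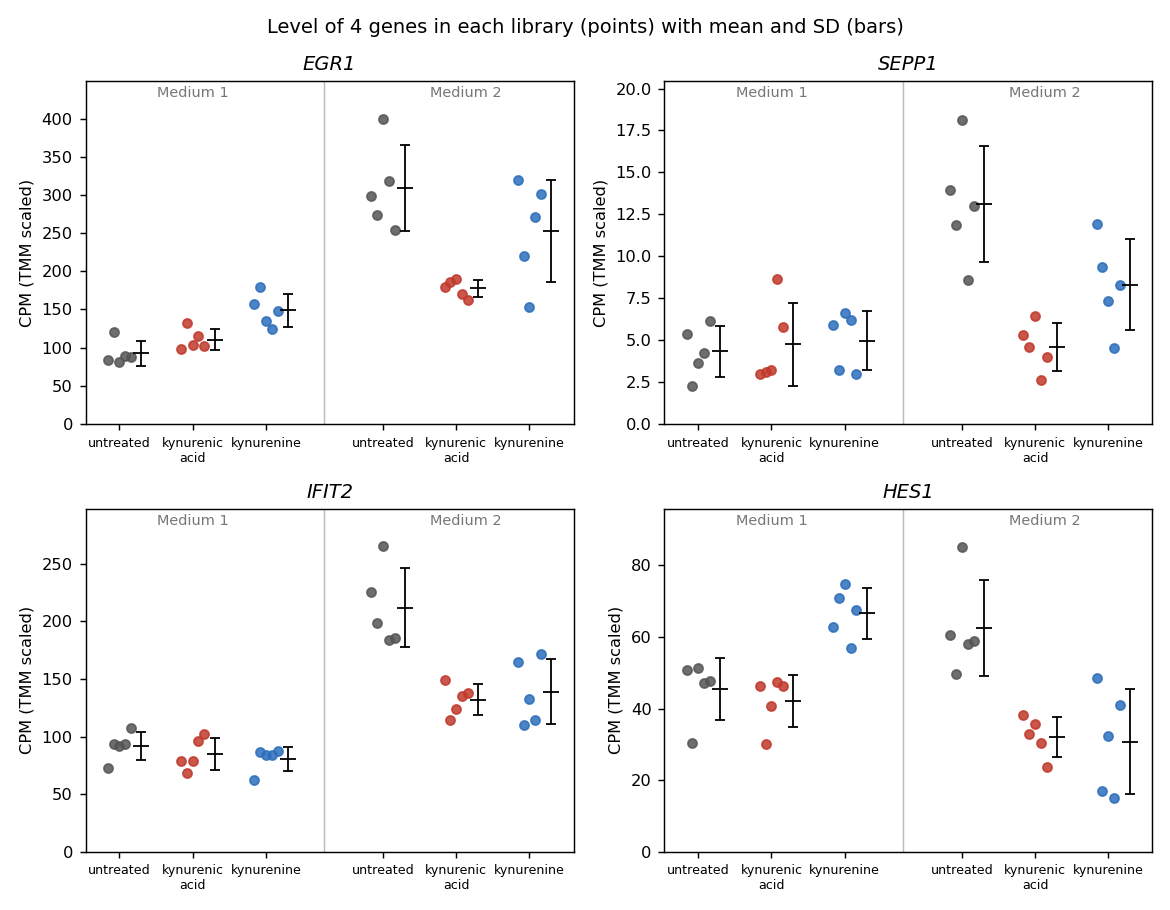
Each point is 1 library, placed by treatment and medium on the x axis with its level in CPM on the y axis, and the black bar beside it gives the mean and SD of 5 libraries. In Medium 2 the 5 kynurenic acid libraries of EGR1 (163 to 190 CPM) lie below the 5 untreated ones (254 to 400 CPM), while in Medium 1 the groups overlap.

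IFIT2, an interferon-induced gene whose protein binds foreign RNA, stood next. Its untreated Medium 2 libraries held 226, 199, 266, 184 and 186 CPM and its kynurenic acid libraries 149, 114, 124, 135 and 138 CPM, without overlap. The log2 fold change was -0.68 (SE 0.15) and the adjusted p 0.0792, past the threshold with DESeq2 (0.0351). HES1, the repressor that Notch signalling switches on, had 60.6, 49.7, 85.2, 58.1 and 58.8 CPM untreated and 38.2, 32.8, 35.8, 30.3 and 23.6 CPM with kynurenic acid. Again the libraries were apart (log2 fold change -0.96, SE 0.23, adjusted p = 0.138). TNFAIP3, the deubiquitinase that ends NF-kB signalling, had 15 to 32.2 CPM untreated and 6.53 to 17.3 CPM with kynurenic acid. Only the kynurenic acid library of well F7, at 17.3 CPM, reached the untreated range (log2 fold change -1.22, SE 0.29, adjusted p = 0.138). The translation factor gene EEF1A2 stood at -0.87 on the log2 scale (SE 0.22, adjusted p = 0.209), with 70.5 to 145 CPM untreated. With kynurenic acid it had 33.4, 85.3, 22.2, 84.2 and 87.4 CPM, so that its ranges overlapped. Only the kynurenic acid libraries of wells C7 and E7 lay below the untreated range, and the others lay within it.

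On the other side, no gene with a positive fold change in Medium 2 passed. MED31, a subunit of the Mediator complex, came nearest at 45.6, 45.3, 41.8, 54.8 and 44.5 CPM untreated against 52.5, 68.9, 85.2, 71.7 and 76.3 CPM with kynurenic acid (log2 fold change 0.61, SE 0.14, adjusted p = 0.0895). All but 1 kynurenic acid library lay above the untreated range. COMMD5, the splicing factor gene LUC7L3 and the nuclear pore gene NUP85 had log2 fold changes of 0.65, 0.44 and 0.47 with no overlap between groups, and adjusted p of 0.178, 0.178 and 0.209. NSL1, a kinetochore gene, had 0.41 (adjusted p = 0.236).

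Genes that respond to growth signals were described as a list of 33 immediate early genes, Ras-ERK feedback genes and related transcription factors, which was chosen with earlier results known. Of 32 tested, EGR1 alone passed in Medium 2. There, 30 had a negative and 2 a positive fold change, with a median of -0.302 where the median of all genes was 0.007. Of the 32, 11 had an unadjusted p under 0.05, all with a negative fold change, where 7.97% of all genes had such a p in either direction. For 5 of the 32 the untreated libraries lay wholly above those with kynurenic acid, as they did for 0.876% of all genes. In Medium 1 the split was 15 positive and 17 negative with a median of -0.018, and no member passed. Leaving out 1 library at a time kept 28 to 31 negative members in Medium 2 and 14 to 20 in Medium 1. Members of such a list are switched on together and share the same libraries, so their number is not a number of independent observations.

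EGR3, a relative of EGR1, had 8.58, 7.56, 15.9, 13.2 and 14.2 CPM in untreated Medium 2 and 4.24, 5.91, 5.73, 4.18 and 3.52 CPM with kynurenic acid. JUNB, a partner of FOS in the AP-1 factor, had 93.3, 82.0, 100, 80.6 and 77.9 CPM and 53, 74.8, 63.7, 58.1 and 54.2 CPM. In both genes the groups were apart, with log2 fold changes of -1.34 (SE 0.38, adjusted p = 0.269) and -0.52 (SE 0.16, adjusted p = 0.324). ID1, an inhibitor of differentiation factors, was the last of the 5 with no overlap at -0.36 (SE 0.13, adjusted p = 0.439). FOS itself was a low gene with 4.32 to 13.2 CPM untreated and 2.01 to 5.23 CPM with kynurenic acid, which overlap. In Medium 1 the largest difference among these genes was in SPRY2, a feedback inhibitor of Ras-ERK signalling, at 1.81 to 5.64 CPM untreated and 1.99 to 14 CPM with kynurenic acid (log2 fold change 1.32, SE 0.43, adjusted p = 0.999).

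Interferon response genes, which cells switch on after type I interferon binds its receptor, had negative fold changes in both media without any passing. Of 28 tested, 24 were negative in Medium 1 with a median of -0.089, and 26 in Medium 2 with a median of -0.19. Unadjusted p was under 0.05 for 2 in Medium 1, where 3.27% of all genes had such a p, and for 7 in Medium 2, where 7.97% did. IFIT3 had 315, 288, 373, 268 and 295 CPM in untreated Medium 2 and 236, 248, 260, 247 and 249 CPM with kynurenic acid, apart by a small gap (log2 fold change -0.31, SE 0.12, adjusted p = 0.472). Its neighbour IFIT1 had 498 to 579 CPM and 387 to 504 CPM, which overlap. STAT2, a transcription factor of that response, had 11.6 to 23.2 CPM untreated and 5.01 to 15.4 CPM with kynurenic acid (log2 fold change -0.72, SE 0.29, adjusted p = 0.5). With kynurenine in Medium 2, IFIT3 had 183 to 268 CPM, IFIT1 315 to 418 CPM and STAT2 8.3 to 24.1 CPM. Low levels of IFIT1 and IFIT3 against the same untreated libraries were thus not particular to kynurenic acid.

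**Figure D3:**
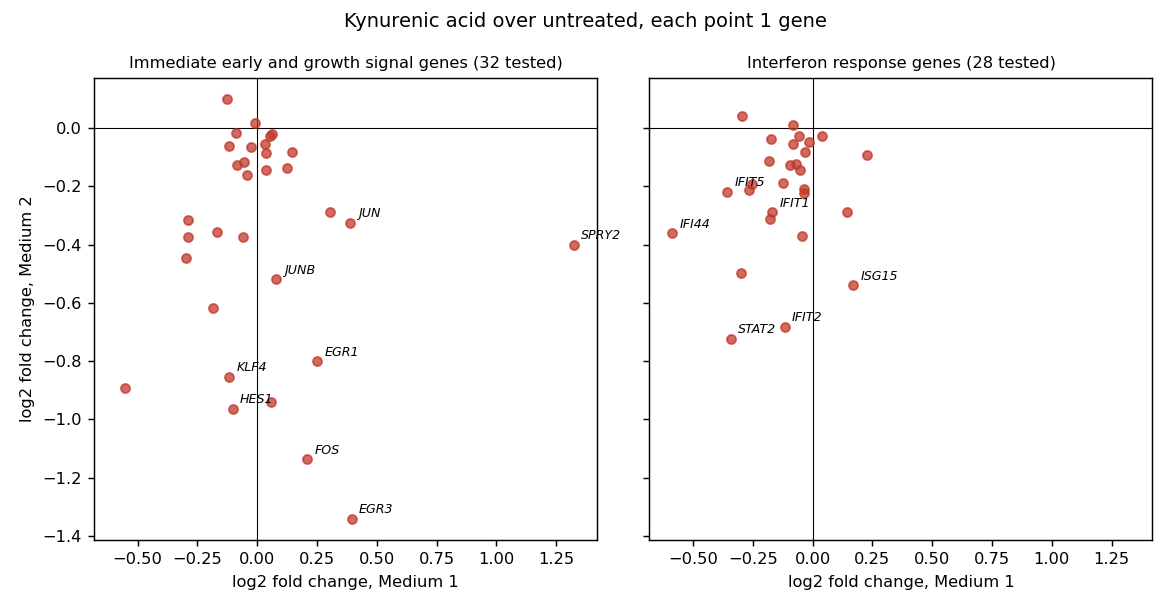
Each point is 1 gene, with its log2 fold change of kynurenic acid over untreated in Medium 1 on the x axis and in Medium 2 on the y axis, for 32 growth signal genes (left) and 28 interferon response genes (right). In Medium 2, 30 and 26 of them lie below 0, and in Medium 1, 17 and 24 lie left of 0.

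Other lists in Medium 2 differed in their medians, and none of their members passed. Those for FOXO and MondoA targets, which respond to nutrient and insulin signalling, had 10 of 13 tested members with a negative fold change and a median of -0.371. KLHL24 led them at 44.2 to 73.6 CPM untreated and 20.1 to 45.8 CPM with kynurenic acid (log2 fold change -0.80, SE 0.24, adjusted p = 0.317). Wnt and stem cell genes had 12 of 17 negative (median -0.249). The progenitor factor SOX9 had 138, 144, 141, 118 and 134 CPM untreated and 104, 86.0, 91.6, 93.7 and 77.3 CPM with kynurenic acid, without overlap (log2 fold change -0.57, SE 0.15, adjusted p = 0.237). SOX4, of the same family, was likewise apart (-0.43, SE 0.12, adjusted p = 0.269). Targets of hypoxia-inducible factors had 17 of 21 negative (median -0.248), with HILPDA, a lipid droplet gene, at 178 to 244 CPM untreated and 109 to 173 CPM with kynurenic acid (-0.49, SE 0.18, adjusted p = 0.469). Genes of the ATF4 stress response went both ways, 14 of 25 positive and 11 negative (median 0.03). Among them DDIT4, an inhibitor of mTORC1, had 366 to 613 CPM and 160 to 360 CPM, with no overlap (-0.73, SE 0.21, adjusted p = 0.298). With kynurenine in Medium 2, KLHL24 had 38.84 to 53.47 CPM, SOX9 82.63 to 139.6 CPM and SOX4 323.6 to 448.1 CPM. HILPDA had 82.95 to 248.6 CPM and DDIT4 157.3 to 457.8 CPM there. Each of these ranges reached below the untreated one and also overlapped it. Low levels of these genes against the same untreated libraries were thus not particular to kynurenic acid.

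The highest medians in Medium 2 were those of mitosis, heat shock proteins and the proteasome, and no member of these lists passed. Mitosis genes had 24 of 28 members positive (median 0.155), and AURKA, a spindle kinase, had 152, 162, 169, 188 and 178 CPM untreated and 247, 231, 199, 225 and 220 CPM with kynurenic acid. These were apart (log2 fold change 0.40, SE 0.11, adjusted p = 0.269). Proteasome subunits had 24 of 31 positive (median 0.136), among them PSMD13 at 169 to 183 CPM and 209 to 273 CPM (0.40, SE 0.11, adjusted p = 0.269). Heat shock proteins had 16 of 20 positive (median 0.141). HSP90AB1, which also holds the aryl hydrocarbon receptor in the cytosol, stood at 0.32 on the log2 scale (SE 0.11, adjusted p = 0.389) with no overlap. In Medium 1 the same 3 lists had medians of 0.086, 0.012 and -0.013.

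**Figure D4:**
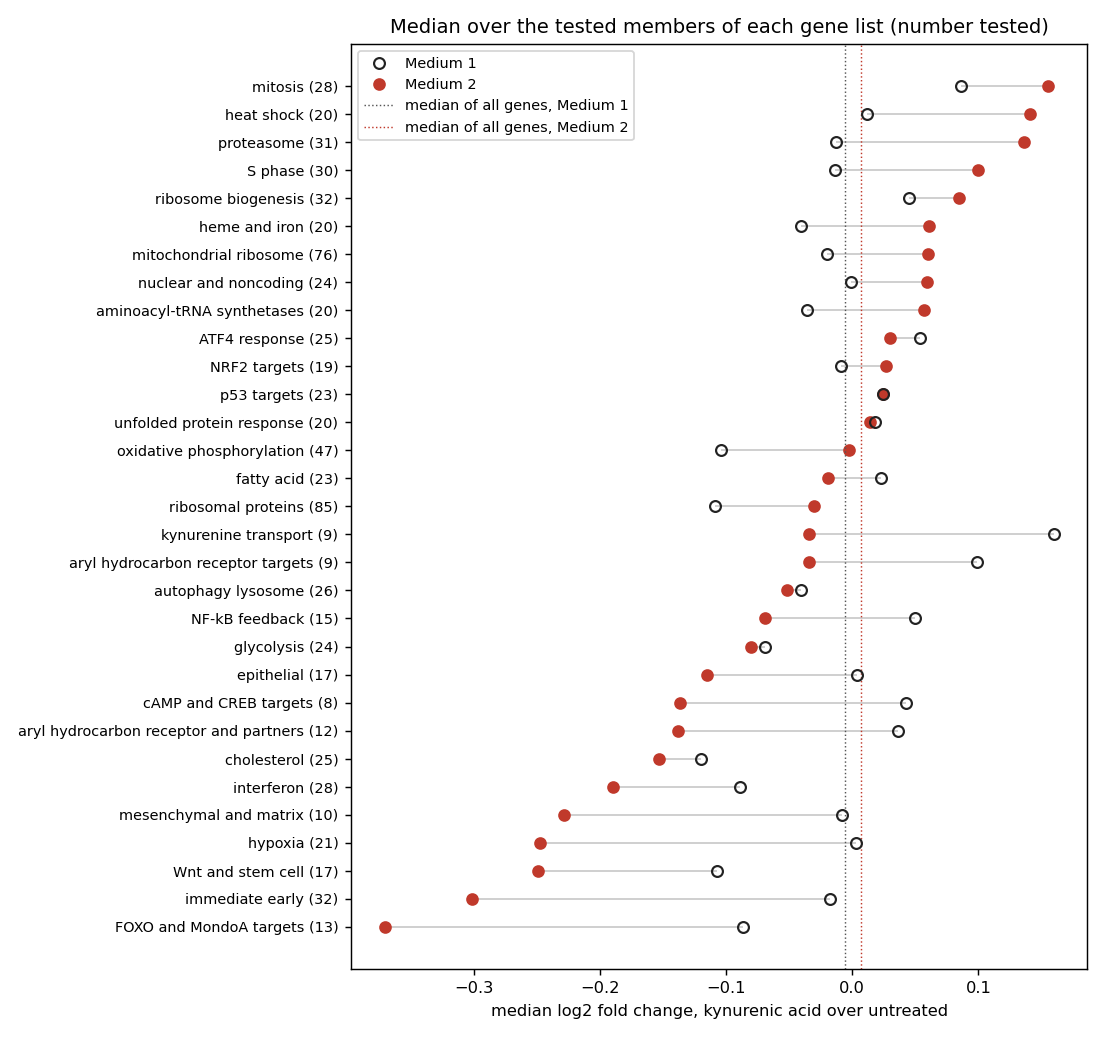
Each line is a gene list with at least 8 tested members (number in brackets), with the median log2 fold change of kynurenic acid over untreated on the x axis, open circles for Medium 1 and red points for Medium 2, and dotted lines for the median of all genes. The Medium 2 points run from -0.371 for FOXO and MondoA targets to 0.155 for mitosis.

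Medium 1 showed its smallest p-values in other genes. CRYM, a thyroid hormone binding protein, had 12.7, 13.6, 17.7, 11.5 and 14.4 CPM untreated and 6.97, 7.24, 5.90, 8.20 and 6.38 CPM with kynurenic acid. Its groups were apart (log2 fold change -0.99, SE 0.25, adjusted p = 0.999). In Medium 2 the same gene had 13.6 to 17.8 CPM and 13.1 to 24.3 CPM (0.04, SE 0.23). ATF7, a transcription factor of the CREB family, had 8.29, 8.14, 11, 10.3 and 12.8 CPM untreated and 16.4, 19.1, 18.8, 14.6 and 15.7 CPM with kynurenic acid, again apart (0.74, SE 0.22, adjusted p = 0.999). GPRASP2, a receptor sorting protein, had 5.64 to 15.9 CPM and 1.07 to 5.92 CPM, which overlap by 1 library of each group (-1.55, SE 0.38). The others that led were TRIM28 (0.44), SENP2 (0.38), DKC1 (0.38) and UBE2O (0.31) with positive and ZNF75D (-1.10), MYLK (-0.89) and MSRA (-0.77) with negative log2 fold changes. RPL28 (0.62) and SERF1A (-0.44) have near-identical copies, so their counts are uncertain.

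In Medium 1, some large sets of housekeeping genes had small negative fold changes, where 48.8% of all genes had a positive one. Others did not share this. The median was -0.02 over 76 mitochondrial ribosomal protein genes, -0.013 over 31 proteasome genes and 0.045 over 32 ribosome biogenesis genes. Of 85 ribosomal protein genes tested 75 were negative (median -0.109, against -0.0056 for all genes), of 47 oxidative phosphorylation genes 38 (median -0.104) and of 25 cholesterol synthesis genes 21 (median -0.12). Ribosomal protein genes took 9.5% to 10.35% of counts in untreated and 8.89% to 9.52% in kynurenic acid libraries of Medium 1, and 10.34% to 11.75% and 9.7% to 11.59% in Medium 2. Many of these genes have processed copies, and how reads were shared among copies is not given in the sources used here. HMGCS1, the enzyme that makes the precursor of mevalonate, had 601, 473, 489, 460 and 444 CPM untreated and 421, 364, 382, 442 and 394 CPM with kynurenic acid, apart by 2 CPM (log2 fold change -0.30, SE 0.11, adjusted p = 0.999). In Medium 2, 52 of 85 ribosomal protein genes, 24 of 47 oxidative phosphorylation genes and 17 of 25 cholesterol genes were negative.

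Averaged over media, the genes with the smallest p-values included TNKS1BP1 (log2 fold change -0.74, SE 0.19), NSL1 (0.30, SE 0.07), the acyl-CoA synthetase gene ACSL5 (-0.39, SE 0.10), IFIT2 (-0.40, SE 0.11) and SURF2 (0.73, SE 0.19). None of them came near the threshold, as ACSL5 shows. Its levels were 83.8, 88.7, 109, 128 and 112 CPM in untreated Medium 1 against 81.6, 68.3, 73.0, 87.5 and 103 CPM, and 104, 99.9, 107, 120 and 98.3 CPM in untreated Medium 2 against 72.7, 72.9, 83.0, 72.7 and 85.3 CPM. Only in Medium 2 were the groups apart, and the adjusted p of the average was 0.528. An adjusted p of 0.533 was shared by IFIT2, SURF2, C1orf27, POP1 and NKTR, and by C3orf58, TSPYL1 and PLAT, the tissue plasminogen activator gene, whose fold changes were negative.

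Whether the response differed between media was tested as the fold change in Medium 2 minus that in Medium 1. No gene passed with edgeR (0%) or DESeq2, and 253 genes had a positive and 270 a negative difference at an unadjusted p under 0.05 (4.63%). EGR1 came nearest, with a difference of -1.05 (SE 0.23, adjusted p = 0.28). It was called with only the compared groups in the fit (-1.08, adjusted p = 0.00782) and with plate row as a term (-1.19, adjusted p = 0.0235). Next were FOSL2, an AP-1 factor (-1.06, SE 0.28), TNFAIP3 (-1.51, SE 0.41) and SEPP1 (-1.68, SE 0.46), each with adjusted p = 0.874. SLC11A2, an iron transporter, led the positive differences at 0.71 (SE 0.21, adjusted p = 0.89). It had 92.3 to 114 CPM untreated and 82.3 to 97.5 CPM with kynurenic acid in Medium 1, and 75 to 98.2 CPM and 99.4 to 154 CPM in Medium 2, where the groups were apart. The other positive differences named were SH2D2A (1.78), GMPR2 (0.92), RWDD2B (0.89), DDX55 (0.75) and PPP2R5A (0.54), each with adjusted p = 0.89.

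Among 16 known targets of the aryl hydrocarbon receptor, 9 were tested and none passed. CYP1A1, the cytochrome P450 that the receptor induces most, had 0.487, 1.36, 0.611, 1.82 and 3.08 CPM in untreated Medium 1 and 5.47, 2.07, 3.76, 1.82 and 1.16 CPM with kynurenic acid. In Medium 2 it had 10.2, 12.4, 8.80, 12.6 and 10.5 CPM untreated and 14.8, 12.5, 13.6, 17.3 and 14.1 CPM with kynurenic acid. The groups overlapped in Medium 1, and in Medium 2 by 1 library of each group. The log2 fold changes were 0.93 (SE 0.40, adjusted p = 0.999) and 0.41 (SE 0.24, adjusted p = 0.684). Their average was 0.67, with a 95% interval from 0.21 to 1.14 (adjusted p = 0.62), and over leave-one-out fits it ran from 0.49 to 0.90. In Medium 1 alone the value ran from 0.57, without the kynurenic acid library of well E3, to 1.39, without the untreated library of well E1.

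The 250 bases before the RefSeq start of CYP1A1, chr15:74725529-74725778 on the − strand of GRCh38.p14, are shown since the gene is the textbook target, with capitals for the single GCGTG found when both strands were searched. GCGTG is the core to which the receptor and ARNT bind, and here its first base is 57 bases before the start.
CYP1A1 promoter: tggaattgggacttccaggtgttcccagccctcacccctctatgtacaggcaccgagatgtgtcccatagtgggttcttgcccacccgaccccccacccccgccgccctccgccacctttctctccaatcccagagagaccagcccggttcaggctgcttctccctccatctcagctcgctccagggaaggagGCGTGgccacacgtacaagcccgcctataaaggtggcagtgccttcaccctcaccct
Of 35116 windows of that length 11313 (32.2%) hold this core, so the match alone marks no gene out.

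CYP1B1, a related cytochrome P450, had 6.33 to 10.3 CPM untreated and 4.48 to 11.9 CPM with kynurenic acid in Medium 1, and 20.5 to 29.7 CPM and 21.7 to 35.1 CPM in Medium 2. These ranges overlap, and the average log2 fold change was 0.05 with a 95% interval from -0.34 to 0.45. TIPARP, a repressor that the receptor induces, had 31.7 to 48.2 CPM untreated and 44 to 75.3 CPM with kynurenic acid in Medium 1 (0.55, SE 0.22, adjusted p = 0.999). In Medium 2 it had 73.4 to 122 CPM and 54.2 to 79.0 CPM (-0.50, SE 0.21, adjusted p = 0.505), and the difference between media was -1.05 (SE 0.30, adjusted p = 0.89). AHRR averaged -0.29 (SE 0.25) and NQO1, which the receptor and NRF2 both induce, 0.14 (SE 0.11). The receptor gene AHR itself averaged -0.04 (SE 0.14) and its partner ARNT -0.19 (SE 0.14). Over the 9 targets the median was 0.099 in Medium 1, with 7 positive, and -0.034 in Medium 2, with 4 positive.

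Kynurenine at the same dose and times gave another picture for some of these genes. On average over both media, kynurenic acid was lower than kynurenine in 4 genes, CYP1A1, CYP1B1, ALDH1A3 and ZNF503 (0.0354%), and higher in none. Tested within each medium alone, 4 of 11298 genes were lower in Medium 1 and 1 in Medium 2, and none was higher. The 2 compounds differ in that the open amino acid side chain of kynurenine is closed into a quinoline ring in kynurenic acid. All genes of this 1 pair of compounds were tested, with p adjusted over the 11298 genes. ALDH1A3 and ZNF503 were named after their values were seen.

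CYP1A1 had 8.59, 5.37, 6.61, 7.64 and 9.56 CPM with kynurenine in Medium 1 and 35.2, 25.9, 30.1, 17.6 and 36.9 CPM in Medium 2, all above the kynurenic acid libraries of the same medium except the lowest of Medium 1, 5.37 CPM, which lay just under the highest kynurenic acid library, 5.47 CPM. The difference, kynurenic acid minus kynurenine, was -1.19 on the log2 scale (SE 0.19, 95% interval -1.56 to -0.82, adjusted p = 0.000122). CYP1B1 had 11.9 to 28.4 CPM with kynurenine in Medium 1 and 39.5 to 51.4 CPM in Medium 2, with a difference of -0.99 (SE 0.18, 95% interval -1.36 to -0.62, adjusted p = 0.00455). No kynurenic acid library reached the kynurenine range of CYP1B1 in either medium, though in Medium 1 the nearest libraries were both at 11.9 CPM after rounding.

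ALDH1A3, which makes retinoic acid from retinal, had 117, 120, 120, 125 and 154 CPM with kynurenic acid in Medium 2 and 345, 262, 230, 217 and 230 CPM with kynurenine. In Medium 1 it had 88.0 to 140 CPM and 145 to 198 CPM, so that the compounds were apart in both media. The difference was -0.78 (SE 0.11, 95% interval -1.0 to -0.55, adjusted p = 3.81e-05). Against untreated spheroids ALDH1A3 averaged 0.08 (SE 0.11) with kynurenic acid. CYP1A1, CYP1B1 and ALDH1A3 passed in each of the 20 fits that left out 1 library and in each other alternative. ZNF503, a zinc finger repressor, had a difference of -0.42 (SE 0.09, adjusted p = 0.0219), which was lost without any 1 of wells H2, D3, F6, G6 and B7 of kynurenine or G3, E7 and F7 of kynurenic acid, and with no filter, with thinning or with only the compared groups. Without the kynurenine library of well H6 the count was 8 genes, which included EGR1 (adjusted p = 0.0145) and STC2 (0.0437).

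**Figure D5:**
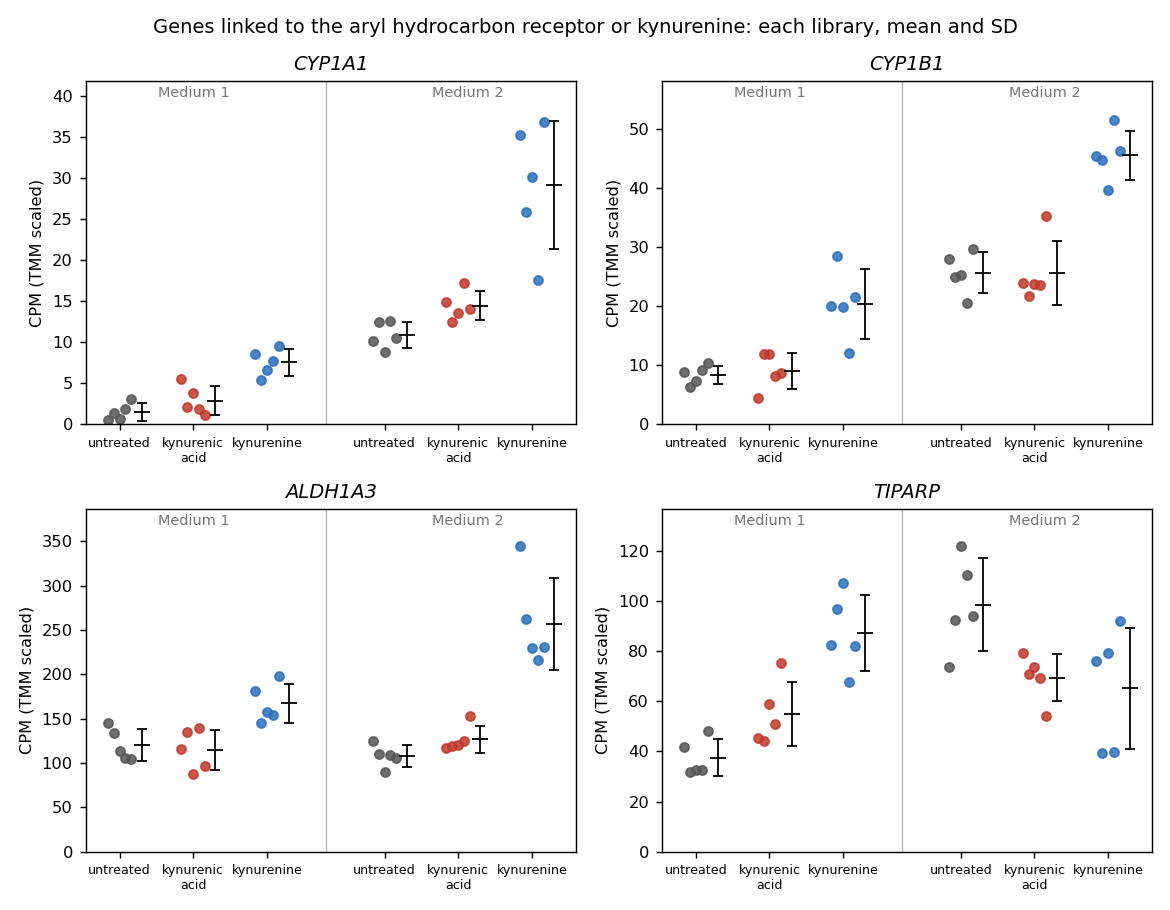
Each point is 1 library, by treatment and medium on the x axis with its level in CPM on the y axis, and black bars give the mean and SD of 5 libraries. In Medium 2 the kynurenic acid libraries of ALDH1A3 (117 to 154 CPM) lie below all kynurenine libraries (217 to 345 CPM), and for TIPARP the 2 compounds overlap there.

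Set side by side, with the same untreated libraries under both, the log2 fold changes of CYP1A1 over untreated were 0.93 with kynurenic acid and 2.31 with kynurenine in Medium 1, and 0.41 and 1.42 in Medium 2. Untreated Medium 1 libraries held only 0.49 to 3.08 CPM of CYP1A1, so the size of its fold changes there is uncertain. For CYP1B1 they were 0.11 and 1.27 in Medium 1, and 0.00 and 0.82 in Medium 2. For TIPARP they were 0.55 and 1.21 in Medium 1 and -0.50 and -0.59 in Medium 2, where the difference between the compounds was 0.08 with a 95% interval from -0.34 to 0.50. For HES1 in Medium 2 they were -0.96 and -1.01, and the compounds differed by 0.05 with an interval from -0.43 to 0.53. For IFIT2 over both media the difference was 0.00 with an interval from -0.21 to 0.21. EGR1 differed by -0.47 (SE 0.11, 95% interval -0.70 to -0.24, adjusted p = 0.179).

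Receptors other than the aryl hydrocarbon receptor were hardly measured. Of 17 genes of GPR35, HCAR3, ionotropic glutamate receptor subunits and the nicotinic receptor subunit CHRNA7, 2 passed the filter on low counts, CHRNA7 and GRIN2D, and neither passed the test. GPR35 had 3 counts in all 20 libraries together and HCAR3 had 0, so a response of either could not be seen at this depth. In the kynurenine pathway 5 of 14 genes were tested. The upstream enzyme gene IDO1 had 6 counts, the downstream genes QPRT and KYNU 8 and 0.

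Genes of the aminotransferases that make kynurenic acid did not pass either. GOT2, an aminotransferase of mitochondria, had 179 to 224 CPM untreated and 160 to 219 CPM with kynurenic acid in Medium 1, and 173 to 224 CPM and 185 to 248 CPM in Medium 2 (average 0.03, SE 0.09). AADAT had 3.71 to 9.24 CPM and 4.77 to 16.2 CPM in Medium 2 (0.81, SE 0.38, adjusted p = 0.584) and a log2 fold change of -0.23 in Medium 1. CCBL1 and CCBL2, now KYAT1 and KYAT3, averaged -0.17 (SE 0.39) and -0.11 (SE 0.13). Among 9 tested carriers of kynurenine and related amino acids, SLC3A2, the heavy chain of the SLC7A5 exchanger, had the smallest p. It had 73.3 to 91.7 CPM untreated and 76.1 to 132 CPM with kynurenic acid in Medium 1, and 87.5 to 129 CPM and 118 to 143 CPM in Medium 2 (average 0.33, SE 0.12, adjusted p = 0.62). SLC7A5 averaged 0.08 (SE 0.11) and the cystine carrier SLC7A11 0.01 (SE 0.14).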

How the data were processed

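RNA was extracted with RNeasy columns and made into 3'-end QuantSeq libraries with unique molecular identifiers, per the labels' protocols, so that a count stands for about 1 molecule and does not grow with gene length. The values are estimated counts for each gene, deposited by the authors. FastQC 0.11.9, UMI-tools 1.1.2, cutadapt 3.4, STAR, Salmon 1.5.2 and GRCh38 are named in the submitters' processing notes. The annotation is not given in the sources used here. Of all values in the table, zeros included, 10.1% were not whole, and all were rounded to whole numbers before any test.

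Genes were kept by filterByExpr (minimum count 10, minimum total 15), which kept 99.63% of the counts of the 20 libraries, and were scaled by TMM. One model with a mean for each of 12 groups was fitted to all 60 libraries with edgeR 4.0.16 in R 4.3.3 (48 residual degrees of freedom, common dispersion 0.0316). Its quasi-likelihood F-tests are two-sided, with Benjamini-Hochberg adjustment over 11298 genes and a threshold of 0.05. CPM are TMM scaled, and intervals cover 95%. The scripts were tested on simulated data. Alternatives were RLE scaling, DESeq2 1.42.0, no filter, a mean of at least 10 CPM, only the compared groups and plate row as a term. Others were 1 random thinning to equal depth, leaving out each library, and leaving out 2 libraries together. These 2 were well B2 of butyrate in Medium 1 and well A7 of kynurenine in Medium 2. Well A7 also belongs to the comparison with kynurenine.

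Named genes were those that passed, then up to 6 per direction by p with a mean of at least 10 CPM, a preset set of receptor, pathway and carrier genes, and up to 3 per list described; a gene that this rule names is not reported here. Comparison members, the 39 lists and this rule were chosen with earlier results of these data known. Column names gave group and well. Coordinates and sequences are from RefSeq GRCh38.p14, matched by symbol for 10328 genes and by an older symbol for 761, with 209 unmatched. CYP1B1 had no entry in the promoter table.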

Additional observations from a re-analysis of the deposited data

Results flagged for a closer look

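In 20 of 240 groups of 5 libraries (8.33%) the highest or lowest library stood apart from the other 4, where chance gives about 1 in 20. Library wells are given, and no cause was tested. In untreated Medium 1, well B1 was apart for EGR1 at 121 CPM (others 81.3 to 89.6), for HES1 at 30.3 CPM (others 47.2 to 51.4) and for RWDD2B, a gene among those with the largest difference between media, at 35.3 CPM (others 18.8 to 22.9). Well A1 was apart for the aminotransferase CCBL1 at 7.31 CPM (others 0.611 to 2.05) and for SLC7A5 at 205 CPM (others 136 to 145), and well D1 for TSPYL1 at 81.7 CPM (others 72.8 to 74.6). In kynurenic acid Medium 1, well A4 held 42.3 CPM of ARNT (others 23.9 to 29).

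In untreated Medium 2, UBE2O stood at 111 CPM in well C5 (others 89.8 to 96.0) and MYLK at 14.3 CPM in well A5 (others 8.64 to 10.2). In kynurenic acid Medium 2, well E7, the library with the lowest total, held 24.3 CPM of CRYM (others 13.1 to 15.4) and 20.8 CPM of MYLK (others 6.53 to 9.02). Well D7 was low for AHRR at 4.59 CPM (others 7.85 to 9.04), CCBL2 at 15.1 CPM (others 29.3 to 30.8) and SLC7A11 at 102 CPM (others 124 to 129). Well G7 was high for LUC7L3 at 548 CPM (others 383 to 401), CYP1B1 at 35.1 CPM (others 21.7 to 23.9) and ALDH1A3 at 154 CPM (others 117 to 125). Well F7 was high for TNFAIP3 at 17.3 CPM (others 6.53 to 9.55) and CCBL1 at 4.71 CPM (others 0.53 to 1.43), and well C7 low for NSL1 at 71.1 CPM (others 90.5 to 97.4).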

How the results depend on the processing

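No paired analysis was possible because the columns of the table name group and well but carry no replicate number. The 2 genes called in Medium 2 became 1 (EGR1) with no filter on low counts, with a mean of at least 10 CPM, where SEPP1 was not tested, and with plate row as a term, and 0 to 3 when 1 library was left out. With thinning, 3 genes were called and SEPP1 was not among them. The difference between media had 1 call (EGR1) with plate row as a term and with only the compared groups. Calls against kynurenine ranged from 3 to 8 with 1 library left out. In Medium 1 and over both media every alternative run gave 0 calls. Causes were not tested. Of values under an alternative, 2087 stayed the same, 7 newly passed, 30 no longer passed and 43 changed sign. For a single gene, the same means an unchanged direction and side of the threshold. Most genes followed did not pass in the main fit, so the same mostly meant not passing again and does not bear on the calls. The 30 losses could come only from genes that passed in the main fit. The 2087 also include the counts of negative members in the growth signal and interferon lists, which stayed near their main values. None of those that changed sign was called. In Medium 1 they were GOT2 (0.036) and CCBL2 (0.024) with thinning. For CYP1B1 in Medium 2 the value was -0.004 with RLE scaling and with no filter, -0.018 with a mean of at least 10 CPM, -0.101 with plate row, -0.113 with thinning, -0.006 with only the compared groups and -0.005 with DESeq2, and over both media -0.032 with plate row and -0.011 with thinning. With 1 library left out, CYP1B1 ran from -0.016 to 0.286 in Medium 1, -0.15 to 0.05 in Medium 2 and -0.018 to 0.141 over both. In Medium 1, ARNT ran from -0.165 to 0.056, NQO1 from -0.018 to 0.179, GOT2 from -0.115 to 0.007, CCBL2 from -0.198 to 0.026 and SLC7A11 from -0.275 to 0.021. In Medium 2, SLC7A5 ran from -0.091 to 0.014. Over both media, TIPARP ran from -0.055 to 0.073, GOT2 from -0.002 to 0.059, CCBL1 from -0.563 to 0.292 and SLC7A11 from -0.061 to 0.087.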

Other observations

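The level of the leading Medium 2 genes in the other exposures bears on how the comparison with untreated spheroids is read. EGR1 averaged 309 ± 56.3 CPM (SD, n = 5) in untreated Medium 2, 178 ± 11.2 with kynurenic acid, 219 ± 44.4 with butyrate, 212 ± 33.5 with hemin, 253 ± 67.3 with kynurenine and 155 ± 19.6 with hemin and kynurenine. SEPP1 averaged 13.1 ± 3.47 CPM untreated, 4.59 ± 1.43 with kynurenic acid and between 5.61 and 8.80 in the other 4 exposures. IFIT2 averaged 212 ± 34.4 CPM untreated, 132 ± 13.4 with kynurenic acid and between 114 and 146 in the others. HES1 averaged 62.5 ± 13.4 CPM untreated, 32.1 ± 5.63 with kynurenic acid and between 25.9 and 38.5 in the others. For these 4 genes the untreated group of Medium 2 thus lay above all 5 exposures, and since those share 1 set of 5 untreated libraries, a property of that set and an effect common to all exposures cannot be told apart. In Medium 1 the untreated mean of EGR1, 92.6 ± 16.1 CPM, was the lowest of the 6 groups.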
